A study of Mus musculus with 4 samples.

Results

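The thin liquid that lines the alveolus carries proteins secreted by the epithelium that hold microbes in check. Proteins with a part in this defence are encoded by 7 genes taken here by their symbols. They are lysozymes Lyz1 and Lyz2, the iron-scavenging lipocalin Lcn2, the complement protein C3, the chemokine Cxcl15, the chitinase-like protein Chil1 and the alarmin Il33. All 7 were found, each listed once in every table, among 23990 genes in all. In mouse lung several of these genes are known best from alveolar type 2 (AT2) cells, the surfactant-making neighbours of the flat alveolar type 1 (AT1) cells. Lyz2 is also known from macrophages and neutrophils, and Lcn2 from neutrophils. The proteins act in different ways: lysozyme cuts the bacterial cell wall, LCN2 withholds iron by binding bacterial siderophores, C3 coats microbes for uptake, CXCL15 draws neutrophils, and IL-33 is stored in the nucleus and released when cells are damaged.

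The RNA came from cells sorted as AT1 cells from the lung edge of littermate mice of mixed B6 and 129 background at postnatal day 3 or 4. The libraries titled Sox2 (n = 2), called Sox2-labelled here, carry the genotype Scnn1a-Cre; Rosa[Sox2/+], a Sox2 transgene at the Rosa locus, and those titled WT (n = 2), called control-labelled here, carry Scnn1a-Cre; Rosa[mTmG/+], a membrane reporter in place of the transgene. All animals thus carried Cre driven by the Scnn1a gene, and Cre acts in every cell in which that gene has been active. No label says whether animals were pooled or which gate took the cells beyond the exclusion of dead ones. Nor does any label say that the libraries of a label came from separate animals, so the spread between them may be technical. Values are FPKM, fragments scaled by transcript length and by library size, which can be compared between genes. Differences are of log2(FPKM + 1), Sox2-labelled minus control-labelled, tested with limma over the 12040 genes that averaged 1 FPKM or more. Called means a Benjamini-Hochberg adjusted p under 0.05. The p-values rest on the spread between libraries, with each gene's variance drawn by limma towards that of genes at a similar level. They do not measure a gene's own spread alone.

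The transgene's own gene went against the labels. Sox2 stood at 1.41 and 1.99 FPKM in the Sox2-labelled libraries, against 302 and 477 FPKM in the control-labelled libraries, a mean 229-fold higher in the control-labelled libraries (log2 difference -7.15, SE 0.34, limma adjusted p = 2.39e-06). Every direction below follows the labels as deposited, so that higher in the Sox2-labelled libraries means higher where the Sox2 transcript was low. Read counts were not analysed here and absolute depth is unknown. The deposited bounds lay, in the median gene above 1 FPKM, 7.94% and 12.4% to either side of the value in the Sox2-labelled libraries and 7.81% and 9.90% in the control-labelled ones. AT1 markers were present in all 4 libraries: the membrane receptor Ager, which defines AT1 cells, had 3260 and 3737 FPKM in the Sox2-labelled libraries and 496 and 157 FPKM in the control-labelled ones. RNA of AT2 cells was present as well, with the surfactant gene Sftpc at 21175 and 14800 FPKM in the Sox2-labelled libraries and 5003 and 796 FPKM in the control-labelled ones.

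All 7 defence genes had higher levels in both Sox2-labelled libraries than in either control-labelled library, and 5 of them passed the test: Lyz2, Lyz1, Cxcl15, Chil1 and Lcn2. Il33 and C3 did not pass. None of the 7 passed in limma with no filter on low values (5 at an unadjusted p under 0.05) or under its robust variance model (3 at an unadjusted p under 0.05). Among all tested genes 4.20% were called higher in the Sox2-labelled libraries and 8.11% lower. Levels there lay above both other libraries in 15.7% of tested genes, and the labels did not overlap, in either direction, in 58.1%. The median log2 difference of the 7 genes was 2.39, against -0.29 over all tested genes. The genes also shared 1 order of libraries. In each of them Sox2-labelled replicate 1 was the highest, Sox2-labelled replicate 2 the next, control-labelled replicate 1 the third and control-labelled replicate 2 the lowest, an order that 9.06% of tested genes had. The replicates labelled control lay far apart, by 4.08-fold for Lyz1 to 17.7-fold for Il33, while the Sox2-labelled ones differed by 1.17-fold for Chil1 to 1.89-fold for Cxcl15.

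**Figure D1:**
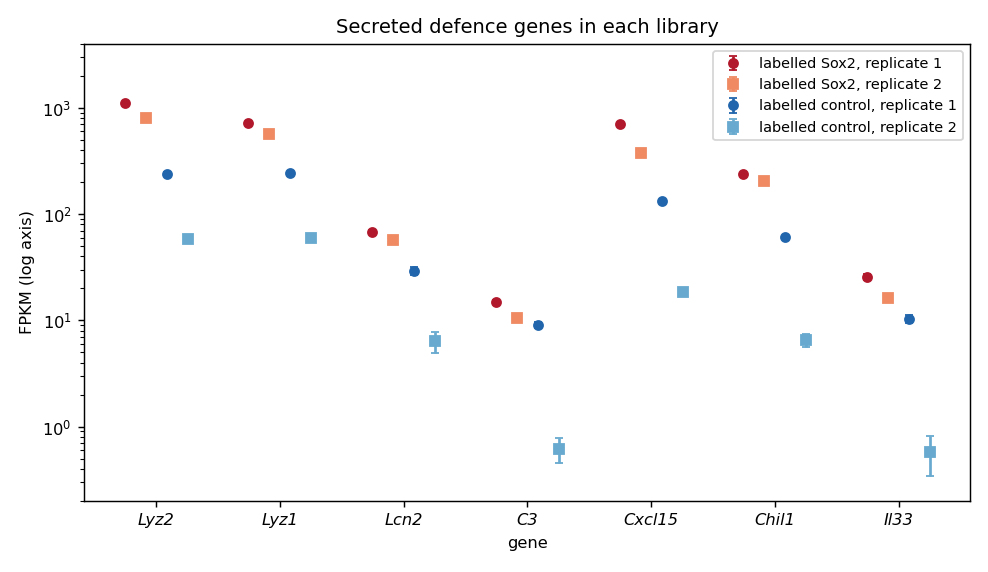
FPKM of the 7 defence genes (log axis) in each library; circles are replicate 1 and squares replicate 2, and bars are the lower and upper bounds deposited with each value. In all 7 genes both red and orange points (labelled Sox2) lie above both blue points (labelled control), and control-labelled replicate 2 is the lowest.

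The lysozymes were the most abundant of the 7 by level per transcript length. Lyz2, the lysozyme of macrophages and AT2 cells, had 1102 and 812 FPKM in the Sox2-labelled libraries, against 241 and 58.3 FPKM in the control-labelled ones. The label groups did not overlap, and the lower Sox2-labelled value was 3.38 times the higher control-labelled one. Its mean was 957 ± 205 FPKM in the Sox2-labelled libraries and 149 ± 129 FPKM in the control-labelled ones (SD, n = 2 each), a 6.40-fold difference. The log2 difference of 2.98 (SE 0.54) had a limma adjusted p of 0.00655. The fold was 16.4 without control-labelled replicate 1 and 3.98 without control-labelled replicate 2. With any 1 library left out, limma's adjusted p for Lyz2 was at most 0.0423, and Lyz2 was the only one of the 7 genes to pass in all 4 such fits.

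Lyz1, the lysozyme best known from Paneth cells of the mouse intestine, had 723 and 571 FPKM in the Sox2-labelled libraries, against 245 and 60.0 FPKM in the control-labelled ones. Both Sox2-labelled libraries were high, and the label groups did not overlap. The mean was 647 ± 107 FPKM in the Sox2-labelled libraries and 153 ± 131 FPKM in the control-labelled ones (SD, n = 2 each), a 4.24-fold difference. The log2 difference of 2.39 (SE 0.53) had a limma adjusted p of 0.0162. The call was lost without Sox2-labelled replicate 1 (limma adjusted p = 0.0804), Sox2-labelled replicate 2 (0.0875) or control-labelled replicate 2 (0.0516), and the fold was 10.8 without control-labelled replicate 1 and 2.64 without control-labelled replicate 2. Lyz2 exceeded Lyz1 1.53- and 1.42-fold in the Sox2-labelled libraries, while the ratio of Lyz2 to Lyz1 was 0.982 and 0.971 in the control-labelled ones. The lysozymes were thus about level where both were low, and Lyz2 led where both were high. This difference of the ratio between labels was not tested.

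The lysozyme genes are neighbours, and how the authors' tools divided their shared fragments is not known, which bears on the ratio of Lyz2 to Lyz1 and on each level. Lyz2 lies on chromosome 10 from 117277541 to 117282272 and Lyz1 from 117287795 to 117292868 on the same, minus, strand (build mm10), with 5522 bases between them and 4 exons each. Their coding sequences of 444 bases (GENCODE M21 transcripts, stop codon left out) differ at 22 positions, and the longest run without a difference is 118 bases. Over the whole transcripts, 16.1% of all windows of 50 bases of Lyz1 and 15.4% of those of Lyz2 occur unchanged in the other gene, and 2.06% and 1.97% of windows of 100 bases do. The first 300 coding bases are shown because they hold most of the coding differences by which fragments of these genes can be told apart, with the differing bases in capitals.
Lyz1 coding: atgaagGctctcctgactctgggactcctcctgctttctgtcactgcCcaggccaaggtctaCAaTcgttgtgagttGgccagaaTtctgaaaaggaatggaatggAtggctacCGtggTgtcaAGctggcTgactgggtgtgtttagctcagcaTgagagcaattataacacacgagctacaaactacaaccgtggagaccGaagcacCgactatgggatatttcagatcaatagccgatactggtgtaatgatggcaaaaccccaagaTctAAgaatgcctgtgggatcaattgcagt
Lyz2 coding: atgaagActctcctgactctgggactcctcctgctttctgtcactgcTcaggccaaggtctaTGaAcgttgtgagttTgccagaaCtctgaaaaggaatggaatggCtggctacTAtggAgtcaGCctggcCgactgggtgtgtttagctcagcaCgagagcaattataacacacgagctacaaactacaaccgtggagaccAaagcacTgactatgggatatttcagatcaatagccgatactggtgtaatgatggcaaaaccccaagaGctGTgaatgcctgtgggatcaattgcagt
These bases hold 20 of the 22 differences. When the FPKM of both genes were added before the log, so that the division between them no longer mattered, the log2 difference was 2.72 (limma adjusted p = 0.0103).

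The lysozyme promoters are also alike, and are shown because these genes moved together. Over the 250 bases before each annotated start (RefSeq, GRCm38.p6), the aligned bases were 80.6% identical. Both windows hold the core CAAGTG bound by NKX2-1, the lung and thyroid regulator of surfactant genes, with its first base 129 bases before the start, printed in capitals.
Lyz1 promoter, chr10:117292869-117293118, minus strand: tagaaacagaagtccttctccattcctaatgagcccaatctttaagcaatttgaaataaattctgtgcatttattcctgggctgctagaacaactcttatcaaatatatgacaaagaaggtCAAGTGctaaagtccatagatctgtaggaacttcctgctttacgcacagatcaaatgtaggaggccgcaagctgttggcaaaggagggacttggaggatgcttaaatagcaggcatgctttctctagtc
Lyz2 promoter, chr10:117282273-117282522, minus strand: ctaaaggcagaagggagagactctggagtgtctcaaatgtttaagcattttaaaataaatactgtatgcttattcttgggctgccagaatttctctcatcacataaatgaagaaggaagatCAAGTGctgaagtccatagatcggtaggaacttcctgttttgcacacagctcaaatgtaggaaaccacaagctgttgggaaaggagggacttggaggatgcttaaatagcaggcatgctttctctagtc
On either strand, CAAGTG occurs in 11.6% of 32851 promoter windows of that length in the mouse table. Among the 8 windows of the 7 genes (Il33 has 2), it was found only in those of Lyz1 and Lyz2. ACAATG, a form of the SOX core (10.7% of all windows), and the AP-1 motif TGANTCA (6.75%) were found in none of the 8. Other forms of the SOX core were not searched for. The C/EBP motif TTGCNNAA (9.56%) was found in the windows of Lyz1, Lcn2 and C3 and in 1 of those of Il33, and the NF-kB motif (7.25%) in that of Chil1 alone. A match describes letters and is no evidence of binding.

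Lcn2, which starves bacteria of iron, had 67.9 and 57.3 FPKM in the Sox2-labelled libraries, against 29.4 and 6.40 FPKM in the control-labelled ones. Control-labelled replicate 2 was the low library, and the label groups did not overlap. Its mean was 62.6 ± 7.51 FPKM in the Sox2-labelled libraries and 17.9 ± 16.2 FPKM in the control-labelled ones (SD, n = 2 each), a 3.50-fold difference. The log2 difference of 2.08 (SE 0.54) had a limma adjusted p of 0.0302, and the call was lost when any library but control-labelled replicate 1 was left out (limma adjusted p = 0.0687 to 0.160). The fold was 9.79 without control-labelled replicate 1 and 2.13 without control-labelled replicate 2. Lcn2 lies on chromosome 2 from 32384637 to 32387739.

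C3, the protein on which all complement pathways converge, was the least abundant of the 7 in the Sox2-labelled libraries. It had 14.8 and 10.6 FPKM there, against 9.06 and 0.621 FPKM in the control-labelled ones. Only control-labelled replicate 2 was far below the rest, since the lowest library labelled Sox2 was just 1.17 times control-labelled replicate 1. The mean was 12.7 ± 3.03 FPKM in the Sox2-labelled libraries and 4.84 ± 5.97 FPKM in the control-labelled ones (SD, n = 2 each), and the log2 difference of 1.74 (SE 0.68, 95% interval 0.25 to 3.24) did not pass (limma adjusted p = 0.115). Without control-labelled replicate 2 the log2 difference was 0.43, and without control-labelled replicate 1 it was 3.06, each with 1 library labelled control left. C3 lies on chromosome 17 from 57203973 to 57228136, and the annotation places a microRNA gene, Mir6978, within it.

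Cxcl15, the neutrophil-attracting chemokine of mouse lung epithelium, had 708 and 375 FPKM in the Sox2-labelled libraries, against 133 and 18.4 FPKM in the control-labelled ones. It spread more than the other 6 genes between the replicates labelled Sox2, yet the label groups did not overlap. Its mean was 541 ± 235 FPKM in the Sox2-labelled libraries and 75.6 ± 80.8 FPKM in the control-labelled ones (SD, n = 2 each), 7.17-fold apart (log2 difference 3.34, SE 0.69, limma adjusted p = 0.0121). The fold was 29.4 without control-labelled replicate 1 and 4.08 without control-labelled replicate 2. The call was lost without Sox2-labelled replicate 1 (limma adjusted p = 0.0774) or replicate 2 (0.0538). Cxcl15 lies on chromosome 5 from 90794534 to 90803067, and it overlaps an annotated microRNA gene, Gm24322, on the other strand.

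Chil1, which binds chitin without cutting it and is made in allergic and bacterial inflammation, had 241 and 206 FPKM in the Sox2-labelled libraries, against 60.5 and 6.54 FPKM in the control-labelled ones. The libraries labelled Sox2 were closer to each other than in any other of the 7 genes, at 1.17-fold. The mean was 223 ± 24.9 FPKM in the Sox2-labelled libraries and 33.5 ± 38.1 FPKM in the control-labelled ones (SD, n = 2 each), 6.66-fold apart, with the largest log2 difference of the 7 genes (3.38, SE 0.71, limma adjusted p = 0.0133). The fold was 34.1 without control-labelled replicate 1 and 3.69 without control-labelled replicate 2. The call was lost without Sox2-labelled replicate 1 (limma adjusted p = 0.0675) or replicate 2 (0.0918). Chil1 lies on chromosome 1 from 134182404 to 134190031.

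Il33, the alarmin that signals through the receptor gene Il1rl1, had 25.7 and 16.3 FPKM in the Sox2-labelled libraries, against 10.3 and 0.578 FPKM in the control-labelled ones. Control-labelled replicate 2 was again far below the others, and there the half-width of the deposited bounds was 41.3% of the value, the widest of the 7 genes. The mean was 21.0 ± 6.67 FPKM in the Sox2-labelled libraries and 5.42 ± 6.84 FPKM in the control-labelled ones (SD, n = 2 each). The log2 difference of 2.35 (SE 0.72, 95% interval 0.77 to 3.93) just missed the threshold (limma adjusted p = 0.0548). It passed when genes listed at several positions and small RNA genes were left out of the fit (limma adjusted p = 0.0273), and with the replicate number as a block. It did not pass with a pseudocount of 0.1 (limma adjusted p = 0.0632), a filter at 5 FPKM (0.068) or median-of-ratios rescaling (0.0672). Nor did it pass with quantile normalization (0.0649) or an untrended variance model (0.0677). The log2 difference was 3.77 without control-labelled replicate 1 and 0.93 without control-labelled replicate 2. Each of these fits rests on 1 library labelled control, which is assumed to vary like the Sox2-labelled ones. Il33 lies on chromosome 19 from 29925114 to 29960715.

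**Figure D2:**
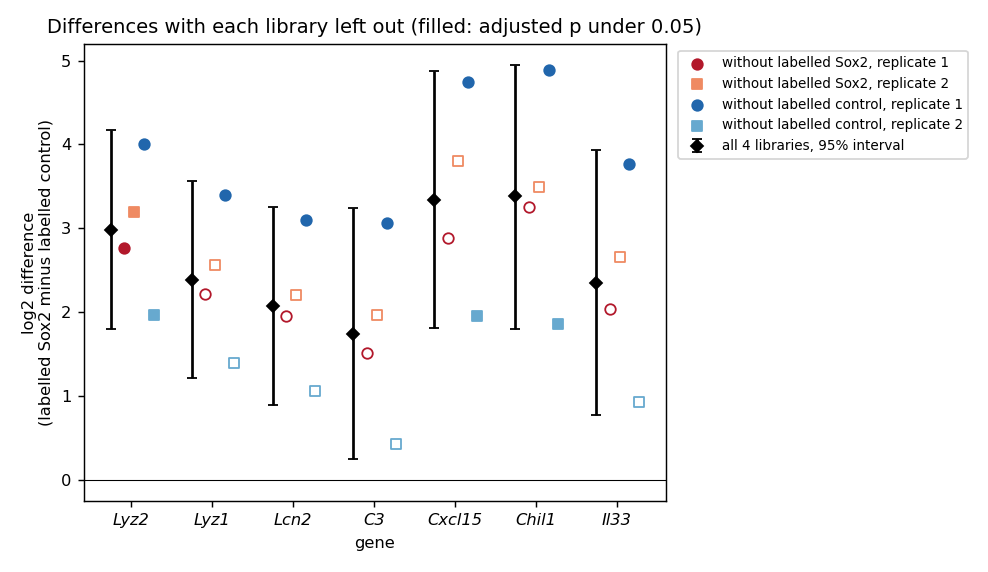
Log2 difference (labelled Sox2 minus labelled control) of each defence gene with all 4 libraries (black diamond, 95% interval from limma) and with each library left out; filled points passed an adjusted p of 0.05 and open points did not. Values are highest without control-labelled replicate 1 and lowest without control-labelled replicate 2, and they stay above 0 in all 7 genes, down to 0.43 for C3.

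The order of levels depended on the library. In the Sox2-labelled libraries it ran Lyz2, Lyz1, Cxcl15, Chil1, Lcn2, Il33 and C3, and in replicate 1 the bounds of Lyz1 and Cxcl15 met at 714 FPKM. In the control-labelled libraries Lyz1 and Lyz2 led, with bounds that overlapped in both replicates. The bounds of C3 and Il33 overlapped there in both replicates as well, and those of Chil1 and Lcn2 in replicate 2. Lyz2 made up 38.2% and 39.7% of the summed FPKM of the 7 genes in the Sox2-labelled libraries, and 33.1% and 38.6% in the control-labelled ones. Cxcl15 made up 24.6% and 18.3% in the Sox2-labelled libraries, and 18.2% and 12.2% in the control-labelled ones. Against all tested genes, 99.9% and 99.8% had a lower FPKM than Lyz2 in the Sox2-labelled libraries, and 98.0% and 92.1% in the control-labelled ones. C3 stood above 68.6% and 66.2% of tested genes in the Sox2-labelled libraries, and above 46.8% and 4.00% in the control-labelled ones.

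**Figure D3:**
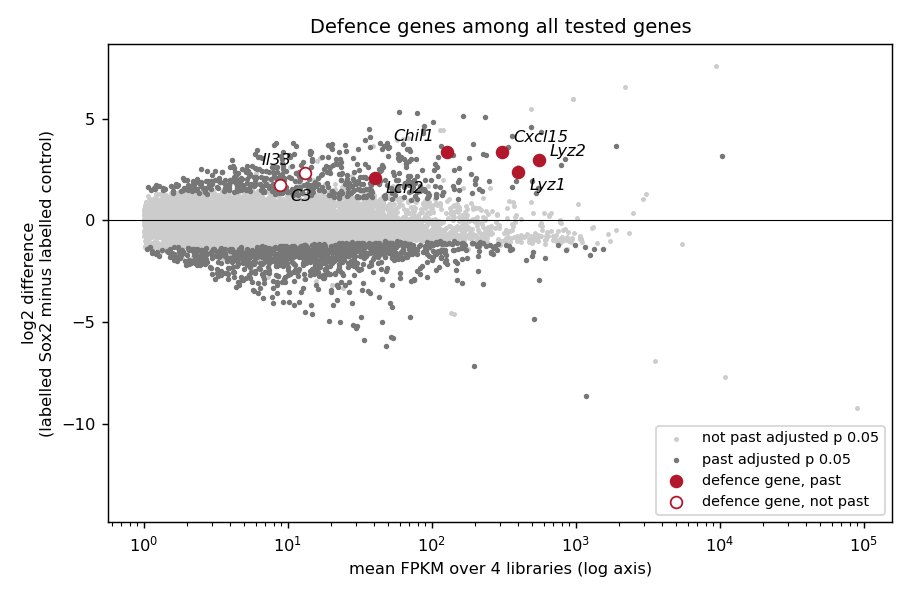
Log2 difference against mean FPKM over the 4 libraries (log axis) for the 12040 tested genes, dark grey where the adjusted p was under 0.05; large red points are the defence genes, filled where called. All 7 sit above 0, from 1.74 for C3 to 3.38 for Chil1.

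Marker RNA of AT2 cells mostly moved with the defence genes. Of 16 AT2 markers, 12 were higher in the Sox2-labelled libraries and 4 missed the threshold (median log2 difference 2.28), and their summed level was 25654 and 17938 FPKM in the Sox2-labelled libraries against 6409 and 1302 FPKM in the control-labelled ones. With Sox2-labelled replicate 1 left out 3 of the 16 AT2 markers were called, with Sox2-labelled replicate 2 left out 2, and under the robust variance model 6. The surfactant gene Sftpb, for example, had 1725 and 1144 FPKM in the Sox2-labelled libraries and 426 and 70.1 FPKM in the control-labelled ones, and lost its call when either Sox2-labelled library was left out (limma adjusted p = 0.0773 and 0.0701) and under the robust variance model (0.286). Not all AT2 markers were lowest in control-labelled replicate 2. In control-labelled replicates 1 and 2, S100g had 38.1 and 49.9 FPKM, Egfl6 41.3 and 55.1 FPKM and Cebpa 17.8 and 22.5 FPKM. All other markers of the 16 were lower in control-labelled replicate 2 than in replicate 1. In such bulk libraries, fewer AT2 cells and less RNA per AT2 cell cannot be told apart. The part of AT2 cell number in the defence gene differences was not tested. AT1 markers had the same direction, with 14 of 16 higher and 2 not past the threshold, and summed levels of 9220 and 10638 FPKM in the Sox2-labelled libraries against 1980 and 1052 FPKM in the control-labelled ones.

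Each defence gene was therefore also set against the geometric mean FPKM of the 16 AT2 markers, which was 235 and 168 in the Sox2-labelled libraries and 78.9 and 24.9 in the control-labelled ones. On this scale the ratios of Lcn2 and Lyz1 had the narrowest range of the 7. The ratio was 0.289 and 0.340 for Lcn2 in the Sox2-labelled libraries and 0.372 and 0.257 in the control-labelled ones. For Lyz1 it was 3.08 and 3.39 in the Sox2-labelled libraries and 3.11 and 2.41 in the control-labelled ones, a 1.41-fold range where its FPKM ranged 12.0-fold. Lyz2 had lower ratios in the control-labelled libraries, with 4.69 and 4.82 in the Sox2-labelled libraries and 3.05 and 2.34 in the control-labelled ones. Cxcl15 varied more, at 3.01 and 2.23 in the Sox2-labelled libraries and 1.68 and 0.738 in the control-labelled ones. Chil1 stood at 1.02 and 1.22 in the Sox2-labelled libraries and 0.766 and 0.263 in the control-labelled ones. For C3 and Il33 the labels overlapped on this scale, since control-labelled replicate 1 had the highest ratio (0.115 and 0.130) and control-labelled replicate 2 the lowest (0.0249 and 0.0232). The pattern depended on the denominator. Against the summed FPKM of the same markers, most of which is Sftpc, Lyz2 had the narrowest range (1.21-fold), at 4.30% and 4.53% of the sum in the Sox2-labelled libraries and 3.76% and 4.48% in the control-labelled ones. Lyz1 was then lower in the Sox2-labelled libraries, at 2.82% and 3.18%, than in the control-labelled ones, at 3.83% and 4.61%, and so was Lcn2, at 0.265% and 0.319% against 0.458% and 0.491%. The sum was chosen as a denominator after seeing the data, and none of these ratios was tested.

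**Figure D4:**
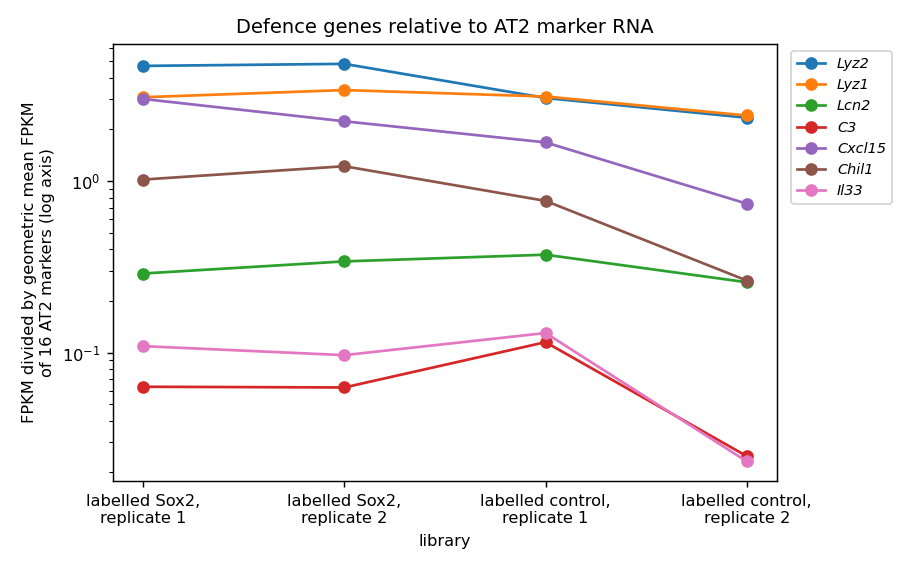
FPKM of each defence gene divided by the geometric mean FPKM of 16 AT2 markers in the same library (log axis); lines join the values of 1 gene. Lcn2 and Lyz1 stay within a 1.45- and a 1.41-fold range, while the other 5 genes range more widely. All 7 genes are lowest in control-labelled replicate 2.

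Markers of other cells that can make these proteins were measured beside them. Of 10 tested macrophage and monocyte markers, 9 did not pass and 1, Csf1r, was higher, and the 16 markers summed to 137 and 57.4 FPKM in the Sox2-labelled libraries against 67.5 and 24.6 FPKM in the control-labelled ones, levels that overlap between the labels. Within this list, the general leukocyte antigen gene Ptprc had 3.22 and 1.49 FPKM in the Sox2-labelled libraries and 1.66 and 0.566 FPKM in the control-labelled ones. Tyrobp had 20.3 and 5.33 FPKM in the Sox2-labelled libraries and 8.54 and 4.90 FPKM in the control-labelled ones. The receptor gene Csf1r, at 27.7 and 25.2 FPKM in the Sox2-labelled libraries and 3.02 and 1.03 FPKM in the control-labelled ones, differed from this pattern (limma adjusted p = 0.00112). Of 6 tested neutrophil markers none passed. Without control-labelled replicate 1, 2 macrophage markers were higher and 1 neutrophil marker was lower. The neutrophil markers summed to 160 and 33.2 FPKM in the Sox2-labelled libraries against 48.0 and 79.9 FPKM in the control-labelled ones, with S100a8 at 61.0 and 12.1 FPKM in the Sox2-labelled libraries and 20.3 and 24.6 FPKM in the control-labelled ones, levels above those of C3 in every library. Mpo and Elane, of the same list, were listed at 0 in both Sox2-labelled libraries and in control-labelled replicate 2. Ngp, Camp and Ltf of that list were above 0 in every library. Ngp had 16.4 and 3.39 FPKM in the Sox2-labelled libraries and 4.16 and 5.76 FPKM in the control-labelled ones. For Camp the levels were 7.38 and 0.79 FPKM against 1.59 and 1.16 FPKM, and for Ltf 4.53 and 0.682 FPKM against 1.95 and 22.0 FPKM.

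Of 6 mesenchymal markers, from cells that can also make C3 and IL-33, none passed (4 were higher without control-labelled replicate 1), and they summed to 270 and 86.6 FPKM in the Sox2-labelled libraries against 120 and 27.6 FPKM in the control-labelled ones. Of 6 endothelial markers 2 were higher, Cdh5 and Cldn5 (0 when either Sox2-labelled library was left out, 6 without control-labelled replicate 1, 1 without control-labelled replicate 2), and the sums were 104 and 47.5 FPKM in the Sox2-labelled libraries against 31.9 and 11.5 FPKM in the control-labelled ones. Club cell markers of the airway included 2 of 4 that were higher, and 1 of 5 ciliated and 1 of 5 red blood cell markers was higher. Without Sox2-labelled replicate 2, none of these club, ciliated or red blood cell markers was called. Of the red blood cell markers, 3 were higher without Sox2-labelled replicate 1 and 4 without control-labelled replicate 2. In the other direction, all 7 tested basal and squamous markers and both tested goblet markers were lower in the Sox2-labelled libraries, with basal and squamous sums of 2.59 and 1.96 FPKM there against 110 and 622 FPKM in the control-labelled libraries. When Sox2-labelled replicate 1 or 2 was left out, 5 basal and squamous markers were lower, and 1 or 0 goblet markers. Control-labelled replicate 2, lowest in the 7 defence genes, had the most basal and squamous RNA and the most Sox2. The part of these cell types in the defence gene differences was not tested.

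**Figure D5:**
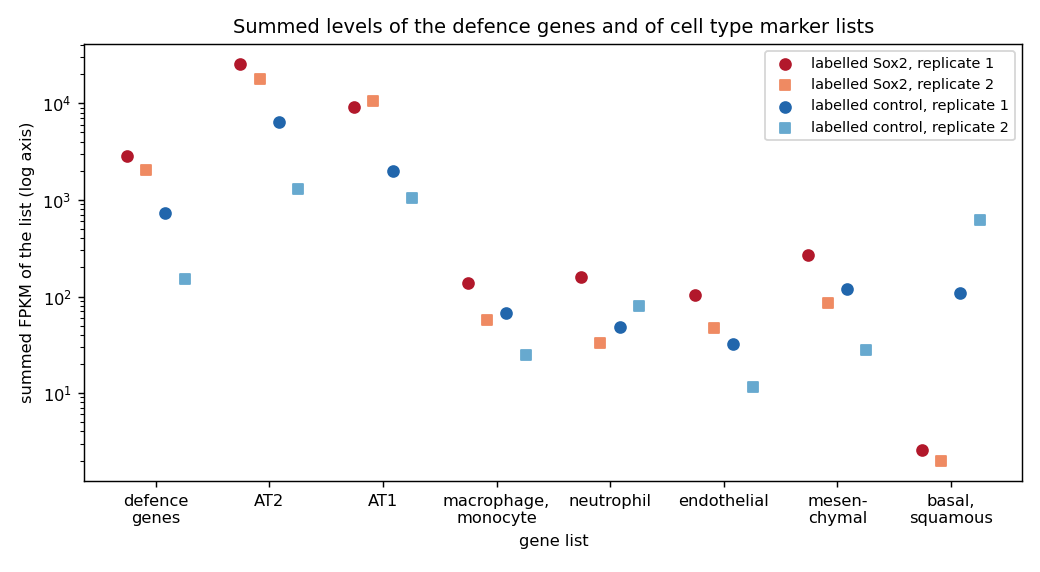
Summed FPKM (log axis) of the 7 defence genes and of 7 cell type marker lists in each library; circles are replicate 1 and squares replicate 2. The defence genes run in the same order of libraries as the AT2 and endothelial lists. The macrophage, neutrophil and mesenchymal sums of the labels overlap. The basal and squamous sum runs the other way between the labels, up to 622 in control-labelled replicate 2.

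Most other defence genes did not pass. Of 117 related genes in 5 lists, 72 were tested, of which 8 were higher in the Sox2-labelled libraries, 3 were lower and 61 did not pass, with a median log2 difference of 0.35. The share called higher, 11.1%, stands beside 4.20% of all tested genes, and some of these genes, Sftpa1, Muc1 and Hc among them, are on the AT2 list too. Among other genes of the lining fluid, 3 of 18 tested were higher, 1 was lower and 14 did not pass. The higher ones were the collectin Sftpa1, which binds microbial sugars, the membrane mucin Muc1 and the chitinase Chia1, which unlike Chil1 cuts chitin. Sftpa1 had 474 and 331 FPKM in the Sox2-labelled libraries, against 140 and 12.2 FPKM in the control-labelled ones (log2 difference 3.20, limma adjusted p = 0.0263). Muc1 had a log2 difference of 1.97 (limma adjusted p = 0.00936) and Chia1 of 1.55 (0.0397). The sugar-binding lectin Lgals3 was lower, at 54.9 and 48.5 FPKM in the Sox2-labelled libraries against 188 and 211 FPKM in the control-labelled ones (log2 difference -1.93, limma adjusted p = 0.00317). The other collectin, Sftpd, did not follow Sftpa1: it had 268 and 211 FPKM in the Sox2-labelled libraries and 226 and 105 FPKM in the control-labelled ones (limma adjusted p = 0.313).

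Of 13 tested complement genes, 2 were higher, 1 was lower and 10 did not pass. Those higher were Hc, which encodes complement component C5 (log2 difference 2.74, limma adjusted p = 0.0450), and the membrane attack component C6 (2.45, 0.0183). Hc had 78.9 and 65.2 FPKM in the Sox2-labelled libraries, against 33.9 and 2.38 FPKM in the control-labelled ones, levels above those of C3 in every library. The lower one was Cd59a, which protects cells from the membrane attack complex, at 2.74 and 4.42 FPKM in the Sox2-labelled libraries against 21.2 and 14.3 FPKM in the control-labelled ones (log2 difference -2.03, limma adjusted p = 0.00874). Of 13 tested IL-1 family and alarmin genes, 12 did not pass and 1 was higher. This was Il18r1, a receptor chain for IL-18, at 45.4 and 31.7 FPKM in the Sox2-labelled libraries against 6.88 and 2.88 FPKM in the control-labelled ones (log2 difference 2.82, limma adjusted p = 0.00235). The IL-33 receptor gene Il1rl1 did not exceed 0.396 FPKM in any library and was not tested.

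Of 7 tested genes of iron handling, 6 did not pass, and the transferrin gene Trf, another iron-binding secreted protein, was higher. It had 161 and 78.0 FPKM in the Sox2-labelled libraries, against 27.5 and 2.55 FPKM in the control-labelled ones (log2 difference 3.49, limma adjusted p = 0.0136). Of 21 inflammatory signalling genes, which include receptors, transcription factors and inhibitors, 19 did not pass. The feedback inhibitor Socs3 was higher (log2 difference 1.16, limma adjusted p = 0.0473) and the transcription factor Cebpd lower (-1.35, 0.0456). Without Sox2-labelled replicate 2, 1 related gene was called higher and 1 lower, while without control-labelled replicate 1 the numbers were 16 and 6, and without Sox2-labelled replicate 1 and control-labelled replicate 2 the higher calls numbered 2 and 5. Sftpa1, Muc1, Chia1, Hc, C6, Trf, Socs3 and Cd59a lost their call when either Sox2-labelled library was left out, Cebpd when replicate 2 of either label was, and Chia1, Hc and Socs3 also lost it without control-labelled replicate 2. Il18r1 and Lgals3 kept theirs with any 1 library left out.

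Profiles over the 4 libraries were compared by the Euclidean distance between log2(FPKM + 1) values centred on each gene's mean. Candidates were 5170 genes averaging at least 10 FPKM, without the 7 themselves and without RIKEN, Gm, Mir and Snor symbols. The 2 nearest candidates were taken for each defence gene. For Chil1 they were AT2 genes, Sftpa1 (distance 0.387) and the phosphate transporter Slc34a2 (0.405). For Cxcl15 they were Trf (0.229) and Dlk1 (0.341). For Lyz2 they were the receptor Nrp1 (0.0748), at 48.2 and 33.8 FPKM in the Sox2-labelled libraries and 9.03 and 1.53 FPKM in the control-labelled ones, and the transcription factor Batf (0.159). For Lyz1 they were Hmha1 (0.124) and the secreted phospholipase Pla2g1b (0.241), and for Lcn2 the prostaglandin transporter Slco2a1 (0.304) and the cyclooxygenase Ptgs1 (0.308). C3 was nearest to the matrix enzymes Lox (0.200) and Pxdn (0.333), and Il33 to the collagen Col6a1 (0.360) and the peptidase Enpep (0.424). Among the 7 genes themselves Lyz1 and Lcn2 were the closest pair (0.320), Cxcl15 and Chil1 the next (0.515), and Chil1 and C3 the farthest (1.66). The distances rest on 4 libraries and are descriptions.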

How the data were processed

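Expression was measured by poly-A RNA-seq in 4 libraries, grouped by their titles into labelled Sox2 and labelled control (n = 2 each). Each library has 1 table of FPKM values, deposited by the authors with bounds on each value, per the file headers. The submitters' processing notes name mm10 as the build and Bowtie2, TopHat2, Cuffdiff and Cufflinks as tools. For their versions, the annotation and the strand setting, the sources used here give nothing. A table of group values in 2 columns that no label ties to a group was not used. No read counts were analysed here, so depth is unknown and no counting interval is given.

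The tables of 24490 entries were joined by symbol and position and entries of 1 symbol were added (267 genes). Rn45s, whose status field marks a failed value, was dropped, and 23990 genes remained. Those averaging 1 FPKM or more were tested on log2(FPKM + 1) with limma 3.58.1 (R 4.3.3; lmFit, eBayes with trend, two-sided, Benjamini-Hochberg over all tested genes, threshold 0.05). Each gene has 2 residual degrees of freedom, and in a fit with 1 library left out the lone library of a label is assumed to vary like the other label's. This scale understates the change of low genes. An exact permutation test of 2 against 2 libraries cannot give a p below 0.333 and was not used. The fit was tested on simulated data with equal spread in both labels, which does not cover genes whose control-labelled replicates alone lie far apart. The 7 genes, the gene lists and the promoter motifs were chosen with earlier results of these data known. Genes named beyond the 7 are, per related list, up to 4 called genes with the largest absolute difference. They also include, per marker list, the 2 most abundant and, per defence gene, the 2 nearest profiles. Sftpd, S100g, Egfl6, Cebpa, Ptprc, Mpo, Elane, Ngp, Camp, Ltf and Il1rl1 were named after their values were seen. Alternatives were a pseudocount of 0.1, no filter or a filter at 5 FPKM, quantile normalization, rescaling by median of ratios, a robust and an untrended variance model, the replicate number as a block, each library left out, leaving out genes at several positions with small RNA genes, and adding Lyz1 to Lyz2. Coding sequences came from GENCODE M21, promoters from RefSeq; sequences were compared with Biopython 1.88.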

Additional observations from a re-analysis of the deposited data

How the results depend on the processing

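With 1 library left out, the log2 difference ranged from 1.39 to 3.40 for Lyz1, 1.97 to 4.00 for Lyz2, 1.95 to 4.74 for Cxcl15, 1.86 to 4.89 for Chil1, 1.06 to 3.10 for Lcn2, 0.43 to 3.06 for C3 and 0.93 to 3.77 for Il33; 1 to 7 of the 7 genes were called, 1 to 16 related genes were higher and 1 to 6 lower, and over all tested genes 119 to 837 were higher and 115 to 1312 lower. All 91 values of the 7 genes under the 13 alternatives were above 0, and 50 were past the threshold. When low values were not filtered out, 0 of the 7 genes passed in limma (5 at an unadjusted p under 0.05). Related genes called were 0 higher and 0 lower (22 unadjusted), and of all 18390 genes 0 higher and 3 lower (1251 higher unadjusted). The log2 differences were still 2.39 for Lyz1, 2.98 for Lyz2, 3.34 for Cxcl15, 3.38 for Chil1 and 2.08 for Lcn2. This alternative adds genes to the test, but the unadjusted limma p-values of these 5 genes rose as well. They ran from 0.00829 for Lyz2 to 0.0275 for Lcn2, against 0.000181 to 0.0026 with the filter at 1 FPKM. An unadjusted p does not depend on the number of tests, so the fitted variance model changed too. Why it changed was not tested. The robust variance model called 0 of the 7 (3 at an unadjusted p under 0.05, limma adjusted p = 0.106 to 0.370), and 5 related genes lower. The log2 differences were the same (2.39, 2.98, 3.34, 3.38 and 2.08), so only the variance assigned to each gene differed. Why it differed for these genes was not tested. Over all alternatives, the adjusted p of Lyz2 reached at most 0.122 and that of C3 0.641. Median-of-ratios rescaling, which brought the median difference over tested genes to 0 in place of -0.29, called 964 genes higher and quantile normalization 980; 58.4% and 54.2% of all calls were then higher, against 34.1%, and the same 5 genes of the 7 passed. With small RNA genes and genes listed at several positions left out, Il33 (2.35) passed and 5 related genes were lower. Replicates of the same number deviated together only weakly (r = 0.234 across 12040 genes, which are not independent), and nothing in the labels pairs them. The fit with the replicate number as a block called 1142 genes higher and 2730 lower, 14 related genes higher and 8 lower, and C3 (1.74) and Il33 (2.35) passed.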
